A study of Mus musculus with 3 samples.

Results

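Multi-copy loci are stretches of genome that occur more than once in nearly the same letters, and in these data they were recognised by read counts that repeated exactly at separate places. The unit was the triple, which is the number of 72-base alignments starting at a position in litter 1, litter 2 and litter 3. A deep start was a nuclear position with 50 or more alignments starting there in each of the 3 litters, and it recurred when another nuclear position held the same triple. Members were autosomal windows of 1 kb with 5 or more deep starts, at least 50% of which recurred. Of 293 windows with enough deep starts, 144 (49.1%) were members, and they are set beside the other 149. Windows in a stretch of chromosome 1 that the selection rule excludes were left out (5 windows). The members were chosen by the measured counts themselves, so their recurrence is a description and carries no test.

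The libraries came from 3 litters of 2-cell embryos, each a pool of embryos collected at embryonic day 1.5. All mothers were LSD1 FL/FL, ZP3::Cre negative mice of mixed strain, carrying the floxed allele without the oocyte-expressed Cre. The fathers are given as C57/Bl6J in the breeding protocol and as wild type CB6 in the description of the crosses. RNA was amplified by SPIA with a Nugen Ovation kit, and the cDNA was sheared before Illumina library construction, so counts are of amplified cDNA without molecular identifiers. The 3 litters form 1 group with no contrasting condition. Litters 1, 2 and 3 gave 34014013, 32431630 and 40474940 nuclear alignments. The embryo label was not checked against marker genes, because no gene annotation on mm9, the build of the files, was used here.

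Repeated sequence in a mammalian genome has several known origins. Tandem duplication leaves similar copies side by side in the same direction, whereas reverse transcription of an RNA and its insertion elsewhere leaves dispersed copies, either as transposable elements or as processed copies of genes, on any chromosome and in either direction. An aligner that reports every place a read fits will give identical stretches identical counts, and the 2-cell stage of the mouse is known for transcription of several repeat families and tandem gene arrays. Neither the origin of any locus described here nor its transcription as separate from that of its copies was tested.

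The members held 7604 deep starts, of which 6288 (82.7%) recurred, against 1476 of 9960 (14.8%) in the other windows. Those 6288 starts carried only 1888 distinct triples. In 48 members every deep start recurred. A member held 5 to 330 deep starts, with a median of 20. The members contained 76.5% of all recurring autosomal deep starts, so most of the recurrence on the autosomes lay inside them. Over all nuclear sequence 8628 of 22256 deep starts (38.8%) recurred.

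Copy number was counted as the number of nuclear positions holding a triple, whether or not neighbouring triples repeated there as well. Its median over recurring member starts was 4. Exactly 2 copies were found for 1221 starts (19.4%), 3 copies for 1272 (20.2%), 4 to 6 copies for 1766 (28.1%), 7 or 8 copies for 379 (6.03%) and 9 to 11 copies for 1646 (26.2%). An array on chromosome 11, set A below, held 2393 of the recurring starts, and without it the median was 3. Only 4 starts had 14 to 19 copies. All 4 shared 1 triple of 65, 50 and 78 alignments, whose 19 positions lay on chromosomes 3, 5, 11 and 17 and on unplaced contigs, 10 of them on chromosome 5 or its contig.

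**Figure D1:**
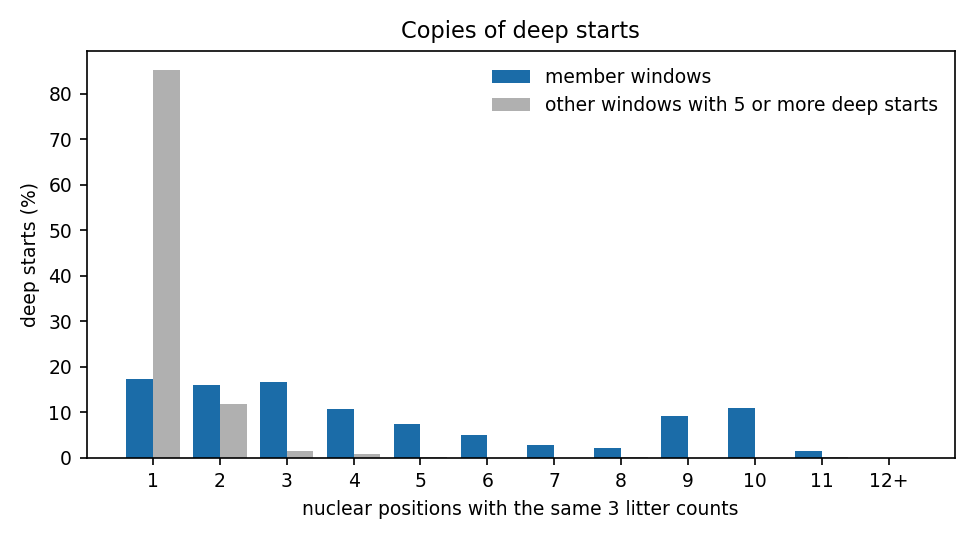
Share of deep starts (vertical axis, percent) by the number of nuclear positions holding the same triple (horizontal axis), for member windows and for other windows. Single-copy starts fill most of the other windows, while members spread over 1 to 11 copies, with 17.3% of their deep starts at 1 copy.

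Members that shared 3 or more triples were joined, together with their partner windows, into 33 groups. Windows and not stretches were joined, so a window edge can split a stretch between groups. This happened at chr2:172334932-172335070 and chr2:172335009-172335211, which overlap but count as separate member loci in separate groups. Both groups also have a locus on chromosome 12, at chr12:70258711-70258813 and chr12:70259648-70260065. Of these, 10 had 1 member window, 12 had 2 to 4 and 11 had 5 or more. Copies lay on more than 1 chromosome in 26 groups, while 4 groups had several loci on a single chromosome. The remaining groups were single member windows, with loci at chr19:51866756, chr7:18378021 and chr9:54672408. Each shared 3 or more triples with no other window and so had no partner. A partner on the X chromosome occurred in 10 groups. Members were found on all 19 autosomes, with 20 on chromosome 11, 15 on chromosome 6 and 14 on chromosome 9, against 3 on chromosome 19. The lettered sets A to M are the 13 groups with the most alignments, the most windows or the most copies, and set N was picked after its values had been seen.

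Among recurring member starts, 50.3% had a copy on the same chromosome and 55.4% had one on another chromosome. Without the chromosome 11 array the shares were 19.9% and 88.5%. Outside that array, dispersed copies were therefore the common arrangement.

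**Figure D2:**
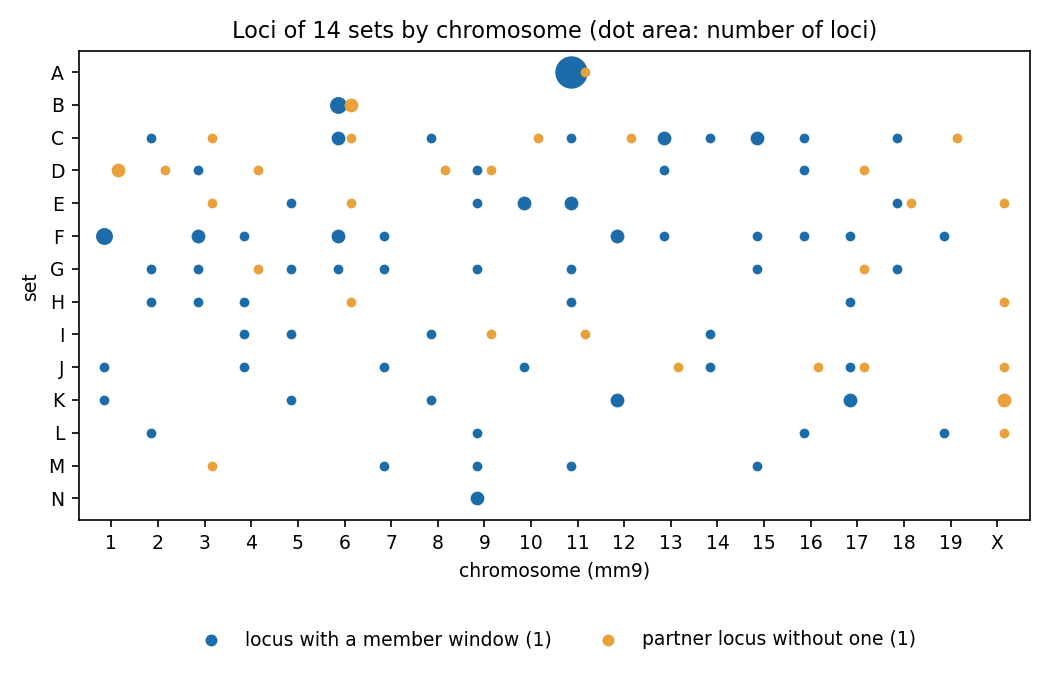
Loci of sets A to N by mm9 chromosome, with dot area for the number of loci, blue for loci that contain a member window and orange for partner loci that do not. Sets A, B and N keep to 1 chromosome, and the other 11 sets spread over several.

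The lettered set with the most loci on a single chromosome was set A, between chr11:60374367-60374811 and chr11:60493150-60493612. It had 12 member windows in 11 loci, and a twelfth locus at chr11:60385065-60385716 was no member, since 18 of its 120 deep starts recurred. Set A contained 374 distinct triples with a median of 9 copies and a maximum of 11. From the first locus to the last, the 11 steps between successive starts were 10698, 20093, 9206, 9209, 9210, 9242, 13273, 9214, 6666, 8948 and 13024 bases. In 5 of them the step lay between 9206 and 9242 bases, and the other 6 differed from these and from each other. All 64 of its collinear blocks ran in the same direction.

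Set A had 10156, 10327 and 8374 alignments per 1000000 nuclear alignments (RPM) in litters 1, 2 and 3, a mean of 9619 ± 1082 (SD, n = 3). A read aligned at several copies enters such a sum at each of them, so the sums describe coverage and not separate molecules. Here and below, the values given for a whole set or group are sums over its member windows of 1 kb, including what lies around the loci in those windows, and partner loci without a member window are not in them. The locus at chr11:60432783-60433251 had 1033, 1051 and 852 RPM in litters 1, 2 and 3. The shorter locus at chr11:60471178-60471381, of 204 bases, had 358, 306 and 287 RPM. The 9 member loci of 445 to 469 bases lay close together, with means of 895 to 979 RPM, and the 2 shorter ones, with means of 464 and 317, lay lower. In 10 of the 11 member loci litter 2 was highest, and litter 3 was lowest in all 11.

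**Figure D3:**
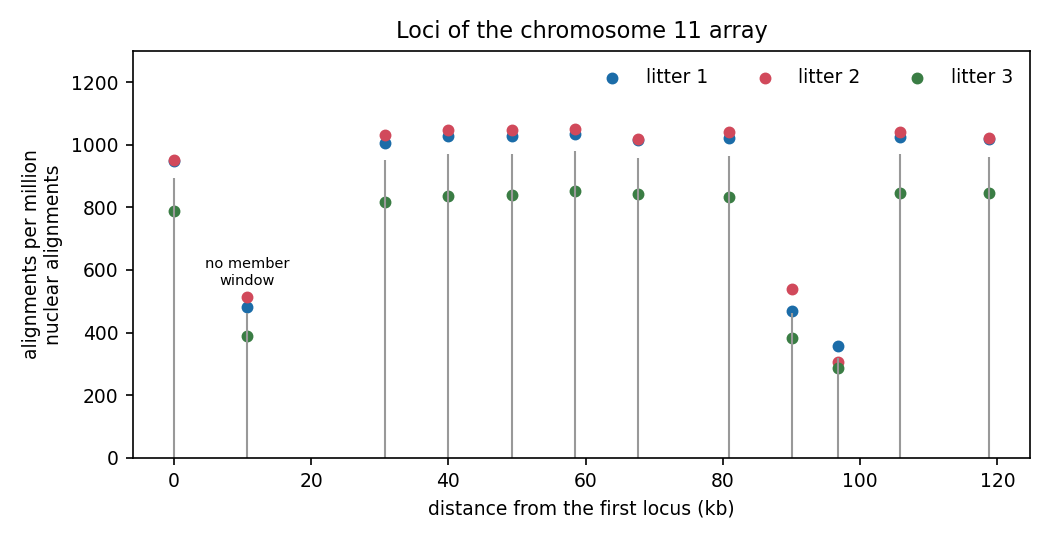
Set A along chromosome 11, with the loci by their distance from the first locus on the horizontal axis and RPM for each litter on the vertical axis. Grey lines end at the mean of the litters, and 9 member loci have means of 895 to 979 while the shorter ones and the locus without a member window lie lower.

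A smaller tandem array, set B, lay near chr6:89125350-89125661. It had 5 loci, 3 of them with member windows, and a median of 3 copies. The loci at chr6:89133801-89134112 and chr6:89153307-89153618 each spanned 312 bases and 91 deep starts, and both had exactly 11516, 12170 and 19450 alignments in litters 1, 2 and 3. The locus between them, at chr6:89142293-89142604, shared all 88 deep starts and all 73 shallower starts of a 232-base block with each of them. At the outermost loci 9 of 71 and 15 of 100 deep starts recurred, and neither is a member. Set B had 1345, 1489 and 1864 RPM in litters 1, 2 and 3 (1566 ± 268, SD, n = 3).

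Set N was an inverted pair on chromosome 9, chr9:78159919-78160120 and chr9:78177095-78177296, whose starts lay 17176 bases apart. In the 202-base copies all 44 deep starts and all 87 shallower starts matched. Each had 10840, 7580 and 5341 alignments in litters 1, 2 and 3, which is 319, 234 and 132 RPM. Litter 1 was the highest and litter 3 the lowest at this pair.

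Dispersed copies made up the remaining large sets. Set C had 14 member windows and 17 loci on 13 chromosomes, with up to 9 copies of a triple. Its 14 member windows, which cover 12 of the loci, had 19823, 3782 and 16075 RPM in litters 1, 2 and 3. The 5 partner loci without a member window are not in that sum, among them chr12:100883458-100883879 with 2016, 399 and 1638 RPM. Litter 2 was far below the others at every locus with a member window, with litter 2 over litter 1 between 0.184 and 0.202. The 5 kb on each side of the loci gave nearly the same ratio, 0.186, and held a median of 3.28% of the alignments counted over locus and flanks. At chr11:33654766-33655070 the flanks include the adjoining window chr11:33655001-33656000, with 17 deep starts and 11346, 1988 and 11356 alignments in litters 1, 2 and 3. The flank ratio is therefore not only that of sequence apart from the loci.

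Set D had 4 member windows, and its 11 loci lay on 9 chromosomes. The 4 member windows had 13259, 5796 and 9582 RPM in litters 1, 2 and 3, and the 7 partner loci are not in that sum. The locus at chr16:11144001-11144411 had 5829, 2387 and 4016 RPM, and the one at chr9:56071377-56071772 had 4747, 2064 and 3634. A partner locus without a member window, chr17:71313002-71313237, had 2524, 703 and 2005. Here too litter 2 was lowest, and the flanks of the member loci held only 0.0359% to 2.18%, so little coverage lay beside them.

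Set E held the longest shared stretch, an inverted block of 686 bases between chr10:56217206-56217891 and chr5:110547149-110547810. Its copies had the lowest share of equal shallower starts among sets A to N, 24.2%. In that block 48 of 319 deep starts and 27 of 230 shallower starts were equal at its most frequent mirror point. Starts past a small shift count as unequal there, so a low share does not measure how far the copies differ. Set E had 11 loci on 8 chromosomes, 7 of them with member windows. Its 10 member windows had 5840, 4598 and 5591 RPM in litters 1, 2 and 3 (5343 ± 657, SD, n = 3). The partner loci on chromosomes 3, 6, 18 and X are not in that sum, and the one on X, chrX:64031619-64032032, had 540, 563 and 809 RPM. Loci with member windows were 664 to 1701 bases long, above the median of 245 bases over all 131 member loci.

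Set F had the most member windows, 17, in 16 loci on 11 chromosomes. Its loci were short and of similar extent, 113 to 245 bases. It had 3307, 3055 and 3215 RPM in litters 1, 2 and 3 (3192 ± 127, SD, n = 3), a relative litter spread of 3.99%. The locus at chr15:90594803-90595047 had 28 deep starts, all recurring, with 192, 177 and 185 RPM. The locus at chr12:55802409-55802653 had the same length and nearly the same level, 186, 171 and 178 RPM, but 12 of its 24 deep starts recurred. Loci of nearly equal level thus differed in the share recurring, and each deep start has to match in all 3 litters to count. Over the member loci of set F, litter 2 over litter 1 lay between 0.890 and 0.932, and flanks held 14.8% to 66.5%.

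Set G, with 9 member windows on 9 chromosomes and partners on 2 more, had 2152, 1698 and 2105 RPM and up to 10 copies of a triple. Set H, with 7 member windows on 5 chromosomes and partners on chromosomes 6 and X, had 2220, 2917 and 2661. Litter 2 was lowest in set G and highest in set H. The locus chr9:96796154-96796616 of set G had 257, 202 and 243 RPM, and chr3:121959723-121960185, also of 463 bases, had 255, 200 and 241. The 2 loci each had 13 deep starts, all recurring. Over the member loci, litter 2 over litter 1 was 0.767 to 0.797 in set G and 1.32 to 1.35 in set H. Loci were joined into sets by shared litter counts, so close ratios within any set are partly built in. The loci of a set are not replicates. The loci chr17:90307916-90308304 and chr3:25109787-25110175 of set H were indistinguishable, each with 57 deep starts and 11261, 14319 and 17763 alignments in litters 1, 2 and 3. The largest copy number of sets H and M, 19, rests on the single triple given above.

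Set I had 1789, 1504 and 1882 RPM, set J 1569, 1447 and 2076, and set K 1287, 1212 and 1668 in litters 1, 2 and 3. In set K the loci chr12:17557717-17557888 and chr5:96404805-96404976 each had 4547, 4097 and 7858 alignments. Litter 2 was the lowest of the 3 in sets I, J and K. In set J the locus with the most RPM among those with member windows was chr17:71225176-71225651, with 358, 324 and 468, and an X-chromosome partner of the same length, chrX:76440382-76440857, had 389, 350 and 511. The X copy is no member, because members are autosomal, and 36 of its 40 deep starts recurred. Set L had 1051, 958 and 1106 RPM and set M 569, 609 and 633. Set M had 1 block, 245 bases between chr15:99536938-99537182 and chr9:114891519-114891763, with all 11 deep and all 163 shallower starts equal.

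Across the 131 member loci, 5 pairs had the same length and the same totals in every litter, in sets B, H, K and N and in a pair between chr7:117118011 and chr9:90014754. That last pair had 4363, 3430 and 5494 alignments at each copy. A read from such a pair cannot be assigned to either copy from these counts.

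Some groups outside sets A to N are also described, picked after their values had been seen. A group of 8 very short loci, 77 to 102 bases, had 534, 631 and 317 RPM over its member windows. All 67 deep starts in those member windows recurred. At the partner loci without a member window, chr6:18112273-18112367 and chr7:137533620-137533705, 3 of 10 deep starts recurred at each. Its locus at chr1:125215456-125215557 had 242, 261 and 165 RPM, and the loci chr3:43827062-43827143 and chr5:43493018-43493107 both had 57.7, 71.9 and 27.9. Litter 3 was lowest and litter 2 highest at each of these loci.

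A group with copies on chromosomes 5, 6 and X and on an unplaced contig was highest in litter 3. Its locus chr6:100817265-100817582 had 249, 261 and 434 RPM, and chrX:72480342-72480659 had the same 3 values, with all 25 deep starts recurring at both. Another group joined chr15:93064869-93065035 and chr2:6997219-6997385, each of 167 bases, at 143, 189 and 153 RPM in both places. The 3 groups thus differed in which litter was highest or lowest. Copies did not all share 1 litter profile. Over the member loci of the group of short loci, litter 2 over litter 1 ran from 1.08 to 1.53. Litter 3 over litter 1 ran from 0.484 to 0.714. The values 1.53 and 0.714 are both from chr10:71759926-71760002, with 6 deep starts. The next window, chr10:71760001-71761000, is outside the group and held 8 deep starts, with 1775, 2202 and 1020 alignments in litters 1, 2 and 3. The ratios and the length of 77 bases at this locus may therefore depend on the window edge.

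In 24 of the 33 groups deep starts repeated in the same order at their copies, and 9 groups had no such block. Collinear blocks, in which at least 5 triples repeated at 1 distance or mirror point or at ones close to it, numbered 318. Their length ran from 76 to 686 bases with a median of 164 and quartiles of 102 and 276, and 70 were of 300 bases or more. Blocks between chromosomes were the majority, 236, of which 124 were direct and 112 inverted. Within a chromosome there were 82, and 64 of those belonged to set A. In 293 blocks no more than 1 distance or mirror point was counted, and 25 blocks had more than 1. Distances held by very few triples were not counted, so the 293 may include blocks with some shifted starts.

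Shallower starts, those below 50 alignments in at least 1 litter at both copies, were not used to choose members. Starts were compared only at the most frequent distance or mirror point of a block, so those past a small shift count as unequal. Inside the blocks, 11716 of 20259 shallower starts (57.8%) had the same 3 counts at both copies, against 15879 of 135903 (11.7%) at starts of any depth in the 500 bases on each side. Without set A the shares were 56.0% inside and 10.8% beside. Blocks end at their last equal deep start, so deep starts beside them were mostly unequal by construction. The contrast is therefore partly built in and is given as a description. Equal counts are easier to reach when they are low, but among shallower starts with 10 or more alignments in each litter at a copy 60.2% of 17613 were equal. Blocks share loci, so these starts are not independent and no test was made. In 155 blocks (48.7%) every populated start was equal, the longest of them 450 bases.

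Sets differed in the share of starts equal at the most frequent distance or mirror point. How much of this came from small shifts between copies was not tested. Set N and set M had all shallower starts equal, set B 90.0% and set F 73.5%. Set E had 24.2%, set D 28.3% and set I 31.0%, but the value of set D rests on 53 shallower starts, 15 of them equal. Among deep starts compared in the blocks, 22.6% were equal in set E, 73.0% in set D and 27.9% in set I. Beside the blocks the share was 46.8% for set N, 31.7% for set H and 0.0707% for set D. Equal counts thus went on past the block at 46.8% of the starts beside set N.

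**Figure D4:**
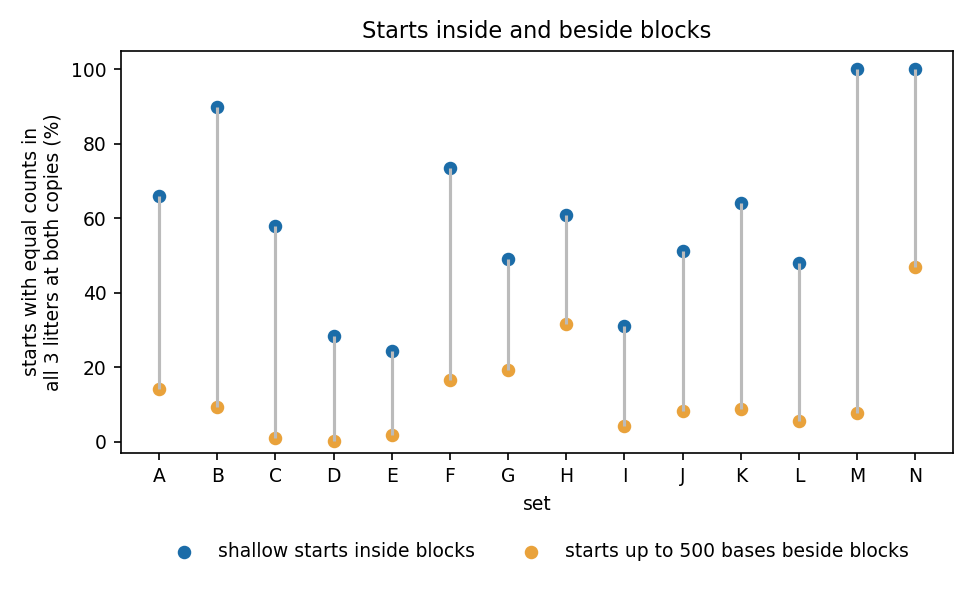
Percent of shallower starts with the same 3 litter counts at both copies, inside the blocks, and of starts of any depth in the 500 bases beside them, for each of sets A to N. The share is higher inside than beside in all 14 sets, from 24.2% against 1.66% in set E to 100% against 7.80% in set M. Block ends were set by equal deep starts, so part of this difference is built in.

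Over all members the share of nuclear alignments was 7.17% in litter 1 (95% Wilson interval 7.16% to 7.18%), 4.63% in litter 2 (4.62% to 4.64%) and 6.43% in litter 3 (6.42% to 6.44%), a mean of 6.08% ± 1.31 (SD, n = 3). The other windows held 10.2% in litter 2 and 15.1% in litter 1, with litter 3 between, and a mean of 12.4% ± 2.49. The intervals treat every alignment as an independent count and leave out the spread between litters. Alignments repeated at several copies and amplified cDNA are not independent, so the intervals are too narrow even for counting error. Counting each triple once lowered the alignments at recurring member starts by a factor of 3.27 ± 0.0533 (SD, n = 3). Sets C and D made up 37.5% of member alignments, and without them the member share was 3.86%, 3.67% and 3.86%, with an SD of 0.110. Most of the litter difference in the member share thus lay in those sets.

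**Figure D5:**
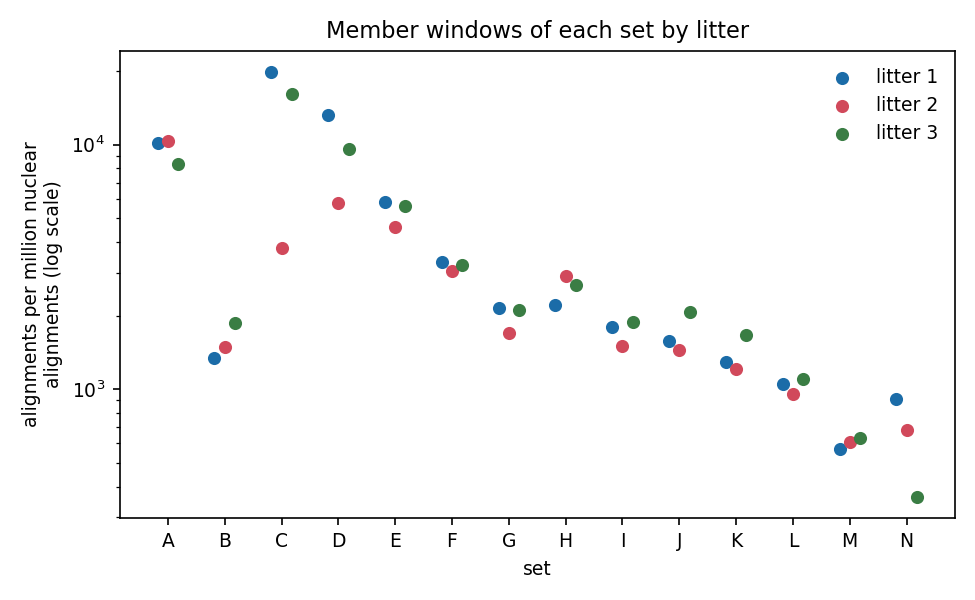
RPM (alignments per 1000000 nuclear alignments) in litters 1, 2 and 3 for sets A to N, on a log axis. Sets C and D are the ones with litter 2 far below litter 1, and litter 2 is highest in sets A and H.

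Window by window, 17 of 144 members (11.8%) were lower by over 2-fold in litter 2 than in litter 1, and all 17 belonged to sets C and D, which have 18 members. Over all 293 windows the share was 18.8%. Higher by over 2-fold were 0 of 144 members, against 2.73% of all windows. For litter 3 over litter 1, 4 members were lower (3.41% of all windows) and 0 were higher (0.683% of all windows). For litter 2 over litter 3, 15 members were lower (17.1% of all windows) and 5 were higher (4.78% of all windows). Members of 1 set share triples, so these windows are not separate observations, and with 1 library per litter no test was made.

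The median coefficient of variation over litters was 13.9% in members and 23.5% in the other windows. Median coverage was similar, at 244, 212 and 247 RPM for members and 260, 197 and 281 for other windows in litters 1, 2 and 3. Members spread their alignments more widely, with a median of 312 start positions per window against 175. Deep starts held a median of 25.5% of a member's alignments and 63.7% of another window's. Of the 33 groups, 18 were lowest in litter 2, 9 in litter 1 and 6 in litter 3.

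Members just inside the limit, with 50% of deep starts recurring, included chr7:135156001-135157000 (3 of 6), chr10:84488001-84489000 (5 of 10) and chr13:107911001-107912000 (5 of 10). Just outside it were chr11:3525001-3526000 (11 of 23, 47.8%), chr10:104675001-104676000 (27 of 57, 47.4%) and chr6:127231001-127232000 (29 of 62, 46.8%). The first holds a partner locus of set I and the second a partner locus of set C, so the limit passes through those sets. A member at chr16:18533299-18533426 had 13 of 14 deep starts recurring, with 108, 61.0 and 97.0 RPM in litters 1, 2 and 3. Its partner on chromosome 17, chr17:39983295-39985050, had 17426, 4717 and 15390 RPM. Only 59 of the 602 deep starts of that partner recurred, so its total is not that of the shared stretch.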

How the data were processed

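RNA of 3 litters of 2-cell embryos was measured, each litter a separate collection per the labels. The authors deposited coverage signal along mm9 per library, with Bowtie and mm9 named in the submitters' processing notes. Its version and settings for reads with several matches: not given in the sources used here. From the coverage signal the number of 72-base alignments starting at each position was recovered from steps in coverage. On the mitochondrial chromosome, where values were rounded, recovery ran backward from the end. No recovered count was below 0.

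Deep starts, windows, groups and blocks were computed with networkx 3.6.1, scipy 1.17.1, pandas 2.3.3 and numpy 2.4.6 under Python 3.11.15, and drawn with matplotlib 3.10.9. Windows sharing 3 or more triples were joined, a limit chosen after seeing the data. A locus was a run of a group's deep starts with gaps of at most 1000 bases. A run therefore ends at a window edge where the next window is outside the group, and what lies beyond counts as flank. A block held 5 or more triples in total, with successive distances or mirror points at most 100 bases apart. Sets were named as the 12 groups with most alignments, the 6 with most member windows and the 4 with most copies, 13 in all. On simulated data with 20 planted blocks, 20 were found and 0 member windows were not planted. The planted copies were exact and without shifts, and their depths were not fitted to these data. How well near or shifted copies are found was therefore not assessed. The members and lists were chosen with earlier results of these data known. Precision is limited by 3 libraries, and the replicates measure the spread between these litters only. Sequences and gene names were not used here, since the genome at hand is of another build.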

Additional observations from a re-analysis of the deposited data

How the results depend on the processing

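Of 61 alternative values, 43 stayed close to the reported value, meaning within 1.5 times for counts and medians and within 1 SD for the alignment share, and 18 moved. A deep-start limit of 30 gave 412 member windows, 105 groups and a member share of 9.17%, and a limit of 100 gave 46, 9 and 3.87%. Requiring 80% recurring gave 89 windows and a share of 3.62%. Counting only triples that repeated in runs at 1 distance or mirror point gave 110 windows, 24 groups and a share of 5.30%, which stayed close. The other members met the rule only through triples outside such runs, and whether those matches reflect shared sequence was not tested. Totals over all alignments gave a share of 4.35%. Joining windows by 1 shared triple gave 11 groups. Leaving out 1 litter leaves 2 counts to match in place of 3 and applies the deep-start limit to those 2 litters only. These changes were not separated. Leaving out 1 litter gave 228 to 352 windows, 34 to 59 groups and a share of 7.90% to 11.4%. The median copy number was then 6 and the median block 240 to 245 bases, close to the limit for moved. Joining by 1, 2 or 5 triples and counting mitochondrial positions as copies were added after seeing the data. No paired analysis was possible because the litters form 1 group. The count of members therefore depends on the deep-start limit and on how many litters must reach it and match.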
